A study of Mus musculus with 36 samples.

Results

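Retinal gene expression 6 weeks (6 W) after microbead injection, the latest time studied in this model of experimental glaucoma, was compared with that of the naïve retina. The comparison used 4 of the 36 bulk RNA-seq libraries of the series, chosen by their labels for tissue, time and treatment: 2 of glaucoma retina at 6 W and 2 of naïve retina (0 D). Each library was RNA pooled from 2 mice of 1 sex, so each group held 1 female and 1 male pool (n = 2), and the effect of a pool's mice cannot be told apart from that of its sex. All mice were C57BL/6 without a transgene, 2 to 4 months old. Glaucoma mice had microbeads placed in the anterior chamber of 1 eye to hinder the outflow of aqueous humor and raise intraocular pressure (IOP), whereas naïve mice had neither eye treated. The retina was freed of nearly all pigment epithelium and choroid before RNA extraction. Retina at 3 days (3 D) and 2 W after bead injection and at 3 D and 2 W after optic nerve (ON) crush gave context. So did the unmyelinated (UON) and myelinated (MON) optic nerve at 0 D and at 3 D, 2 W and 6 W of glaucoma. Each group was again 1 female and 1 male pool.

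Glaucoma damages retinal ganglion cells (RGCs), the neurons whose axons form the optic nerve. Müller glia, astrocytes and microglia of the injured retina raise intermediate filaments, acute phase proteins, complement and antigen presentation genes, part of it through cytokine receptors that share gp130 and signal through STAT3. Rods and cones, which hold most of the RNA of a mouse retina, turn light into a signal through the visual pigments and transducin, and a receptor kinase and arrestin shut that signal off.

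Gene levels are given as CPM, estimated counts per M counts of the library, scaled by the trimmed mean of M-values over the 12 retina libraries, with the female pool before the male pool throughout. The libraries held 34.2 M and 26.6 M estimated counts at 6 W and 43.8 M and 37.2 M in naïve retina, within a range of 19.9 M to 56.0 M over the 12. The labelled sex matched the data in 12 of 12. Rod RNA was abundant as a retina label requires, with rod transducin (Gnat1) at 19698 CPM or more in the naïve and 6 W pools. By Euclidean distance of log2 values, each 6 W pool lay nearest to the 2 W glaucoma pool of its own sex (160.1 and 172.6), while the 6 W pools lay 175.4 from each other. Bulk RNA cannot separate fewer cells of a type from less RNA per cell, for any of the cell markers given here.

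At 6 W, transcripts of 2 genes passed the test against naïve retina, and both fell: Grk1, a receptor kinase of photoreceptors, and Ak4, a mitochondrial adenylate kinase. A gene was called when its Benjamini-Hochberg adjusted p from edgeR's quasi-likelihood test was below 0.05 and its log2 fold change exceeded 1 in size. Of 23301 genes tested, 0 were called higher and 2 lower (0.00858%), with a median log2 fold change of 0.00696. Without adjustment, 784 genes were higher (3.36%) and 537 lower (2.3%) at p below 0.05. DESeq2, run with the same groups and sex term, called 69 genes higher (0.319%) and 45 lower (0.208%) of 21660, in all 0.526%, Grk1 and Ak4 among the latter. Both 6 W pools lay above both naïve pools in 21.8% of all genes tested and below them in 21.4%, and 50.7% had a log2 fold change above 0 and 49.3% below, which is the background for the counts of members given below.

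Grk1 (ENSMUSG00000031450, GRCm38 chr8:13405081-13421951, plus strand) encodes the kinase that phosphorylates the light-activated visual pigment so that arrestin can bind it. Its level was 826 and 964 CPM in naïve retina and 163 and 235 CPM at 6 W. Both 6 W pools lay below every other retina pool, which ran from 710 to 1335 CPM over naïve, 3 D, 2 W and both crush times. The log2 fold change at 6 W was -2.18 (SE 0.18, edgeR adjusted p = 0.0418, DESeq2 adjusted p = 1.4e-23). In FPKM, the authors' value per transcript length, Grk1 went from 94.5 and 110 to 19.98 and 28.13, a ratio of means of 0.235. The main protein-coding transcript carried the difference, with 34866 and 34855 estimated counts in naïve and 5709 and 6218 at 6 W, while the transcript with a retained intron had 136 and 101 against 113 and 88. The edgeR call was lost without the female naïve pool (log2 fold change within -2.34 to -2.04 over the 4 fits that each left out 1 pool, adjusted p 0.0222 to 0.0727). It was also lost with no sex term, with the 4 libraries fitted alone, with offsets for GC content and with limma on FPKM.

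Ak4 (ENSMUSG00000028527, GRCm38 chr4:101419277-101466995, plus strand) stood at 25.8 and 25.1 CPM in naïve retina and at 2.78 and 1.68 CPM at 6 W. In the other 8 retina pools it read 21.0 to 34.5 CPM, so the 6 W pools again lay below all others. The log2 fold change was -3.51 (SE 0.28, edgeR adjusted p = 0.0418, DESeq2 adjusted p = 9.1e-28), and this edgeR call too was lost without the female naïve pool (adjusted p = 0.0727), with the 4 libraries alone and with GC offsets. Estimated counts were made from the coverage of each transcript, and the 3 long protein-coding transcripts of Ak4 summed to 1065 and 854 counts in naïve but to 0 and 1 at 6 W. A short transcript that is not protein-coding read 20 and 53 against 73 and 29 counts. In FPKM the difference was smaller, from 5.89 and 6.41 to 3.71 and 2.19 (ratio 0.479), and limma on log2(FPKM + 1) gave -0.88 with an adjusted p of 0.591. How far the assignment of reads among transcripts set the Ak4 counts was not tested.

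**Figure D1:**
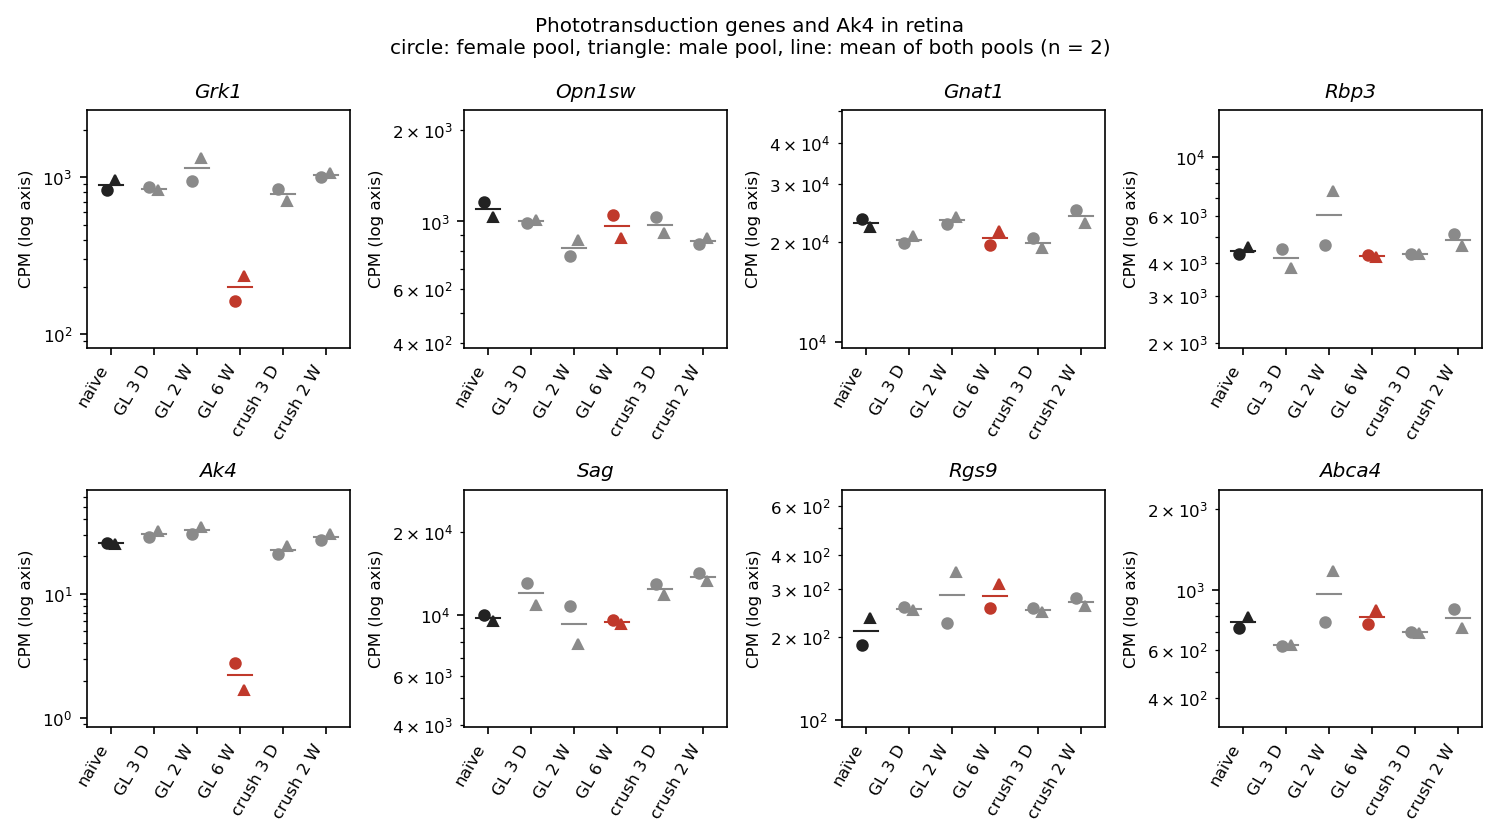
CPM (log axis) of Grk1, Ak4 and 6 other phototransduction and visual cycle genes in the 12 retina pools, with circles for female pools, triangles for male pools and a line at each group mean; 6 W glaucoma (GL) is in red. Grk1 and Ak4 are low in both 6 W pools alone, while Opn1sw, Gnat1, Rbp3, Sag and Abca4 stay near their naïve levels.

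Other genes of the light response lay near their naïve levels. Among 16 genes of the visual cycle and of phototransduction shutoff, Grk1 was the 1 called, and the median log2 fold change was 0.02. Rod arrestin (Sag) read 9988 and 9488 CPM in naïve and 9573 and 9260 CPM at 6 W. Rbp3, the retinoid carrier between photoreceptors and pigment epithelium, read 4320 and 4581 against 4306 and 4214 CPM. Rgs9, which speeds transducin shutoff, was above both naïve pools (187 and 235 to 254 and 312 CPM) but short of a call (log2 fold change 0.43, adjusted p = 0.865 by edgeR).

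No rod gene was called, and the rod genes lay no further below naïve than housekeeping genes. The median log2 fold change of 18 rod genes was -0.15, with 9 non-overlapping below naïve and 0 above, beside -0.20 for 14 housekeeping genes, with 8 below and 0 above. Rod transducin (Gnat1) read 23493 and 22316 CPM in naïve and 19698 and 21581 at 6 W (-0.15, SE 0.11). Nrl, the transcription factor that sets rod identity, read 874 and 926 against 492 and 874 CPM (-0.46, SE 0.19, unadjusted p = 0.0418), the female pool being the low one. The 12 cone genes had the same median to 2 decimals (-0.15), with 2 non-overlapping above and 4 below. Short-wavelength opsin (Opn1sw) read 1157 and 1036 CPM in naïve and 1048 and 882 CPM at 6 W.

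Sequence before the start site is shown for the called gene Grk1 and for Edn2 and Steap4, which had large differences among the stress genes below. Ak4, for which the promoter table holds several starts, is not shown. The windows are the 250 bases upstream of the RefSeq start on GRCm38.p6, written 5′ to 3′ on the strand of the gene, at chr8:13404831-13405080 (plus), chr4:120160956-120161205 (plus) and chr5:7960222-7960471 (plus). Capitals mark a match to TTCNNNGAA, the palindrome that STAT factors bind, searched on both strands.
Grk1: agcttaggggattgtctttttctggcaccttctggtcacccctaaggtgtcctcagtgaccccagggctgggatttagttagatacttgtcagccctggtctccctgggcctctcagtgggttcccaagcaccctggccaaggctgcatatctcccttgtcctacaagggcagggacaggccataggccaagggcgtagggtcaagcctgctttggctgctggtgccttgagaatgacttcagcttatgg
Edn2: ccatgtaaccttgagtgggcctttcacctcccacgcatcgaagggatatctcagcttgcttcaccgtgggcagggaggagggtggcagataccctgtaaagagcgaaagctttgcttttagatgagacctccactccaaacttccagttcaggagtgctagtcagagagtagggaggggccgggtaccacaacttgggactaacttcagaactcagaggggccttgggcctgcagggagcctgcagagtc
Steap4: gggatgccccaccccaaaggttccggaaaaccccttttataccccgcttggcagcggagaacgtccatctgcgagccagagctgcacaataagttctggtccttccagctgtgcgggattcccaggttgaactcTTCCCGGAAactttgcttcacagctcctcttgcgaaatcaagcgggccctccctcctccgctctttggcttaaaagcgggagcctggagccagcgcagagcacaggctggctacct
Steap4 held 1 match, 116 bases before its start, and Edn2 and Grk1 held none. Over 27025 RefSeq promoters, 7.11% held the motif, against 3 of 47 (6.38%) for genes that DESeq2 called higher at 6 W. The window of Grk1 also lacked TAATCC, the core that the photoreceptor factor CRX binds, again on both strands, which 6.42% of all promoters and 6 of 14 promoters of the visual cycle and shutoff list held. Of 844 genes looked up, 622 had a promoter in the table. For the share over all promoters, each gene gave its entry with the lowest start coordinate. For the gene sets it gave the entry nearest the gene's 5′ end, so these shares are not strictly like for like. Promoters of 1 chromosome were left out of both.

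No stress gene of retinal glia was called by edgeR at 6 W. Of the 6 retinal stress genes that the study followed, 5 were non-overlapping above naïve, 4 had an unadjusted p below 0.05, and the median log2 fold change was 0.80. The study picked that list on these samples, so its direction is not independent evidence. Edn2, endothelin 2, an injury signal from photoreceptors to Müller glia, read 2.22 and 0.276 CPM in naïve and 20.1 and 8.80 CPM at 6 W. Its log2 fold change was 3.79 (SE 0.49, edgeR adjusted p = 0.211, DESeq2 adjusted p = 2.9e-14). Gfap, the intermediate filament of reactive glia, read 22.4 and 20.7 against 37.1 and 33.1 CPM (0.70, SE 0.17, edgeR adjusted p = 0.703, DESeq2 0.119). The gp130-type receptor Osmr read 3.56 and 4.66 against 9.83 and 6.30 CPM. Fgf2, a survival factor for photoreceptors, was high in the female 6 W pool (15.5 CPM) and not in the male (0.634 CPM; naïve 0.401 and 0.248). Stat3 (43.0 and 50.5 to 65.9 and 63.9 CPM) and its feedback inhibitor Socs3 (2.97 and 2.12 to 4.63 and 2.61 CPM) showed the least difference.

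Against naïve retina, the median log2 fold change of these stress genes was 1.80 at 3 D, 1.37 at 2 W and 0.80 at 6 W, and the 3 values share the naïve pools. Gfap stood at 61.0 and 43.7 CPM at 3 D and 58.9 and 48.6 CPM at 2 W, above both 6 W pools, whereas Edn2 stood at 17.8 and 10.7 CPM at 3 D, near its 6 W levels. By edgeR, none of the 6 was called between 6 W and 3 D or between 6 W and 2 W.

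Acute phase and reactive astrocyte genes held the largest differences in named glial genes. All 12 tested of 13 PAN-reactive genes, raised in astrocytes by several kinds of injury, had a log2 fold change above 0, 10 were non-overlapping above naïve and 4 were called higher by DESeq2 and 0 by edgeR (median 0.81). Lipocalin 2 (Lcn2), an iron-binding acute phase protein, read 4.72 and 5.52 CPM in naïve and 190 and 145 CPM at 6 W (5.02, SE 1.05, DESeq2 adjusted p = 0.0105). It was called by edgeR only where the 4 libraries were fitted alone, and was uneven earlier, at 20.9 and 98.7 CPM at 3 D and 167 and 24.2 CPM at 2 W. Serpina3n, a secreted protease inhibitor, read 2.22 and 1.79 against 21.4 and 21.1 CPM (3.44, SE 0.64, DESeq2 adjusted p = 0.00767). Steap4, a metalloreductase, went from 0.0944 and 0.221 to 13.6 and 11.3 CPM (4 and 8 estimated counts to 484 and 304, log2 fold change 6.27, SE 1.09, DESeq2 adjusted p = 0.000218).

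Markers assigned to neurotoxic (A1) and protective (A2) astrocytes were mixed. The 11 A1 genes tested had a median of 0.60, with 7 non-overlapping above naïve and 1 below, and the 12 A2 genes had a median of 0.32, with 4 above and 0 below. Neither list had a gene called by edgeR or DESeq2. A pair of further DESeq2 calls came from the gp130 and Müller injury list. The protease inhibitor A2m read 1.94 and 2.84 against 10.9 and 8.80 CPM. The chemokine Ccl2 read 0 in both naïve pools against 1.12 and 1.04 CPM (40 and 28 estimated counts), at least 3.53-fold higher than a floor of 12 estimated counts, or about 3 read pairs, per library. Saa3, an acute phase protein, likewise read 0 in both naïve pools and 3.14 and 3.02 CPM at 6 W, at least 10-fold higher. It was outside the gene lists and picked after its values were seen.

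**Figure D2:**
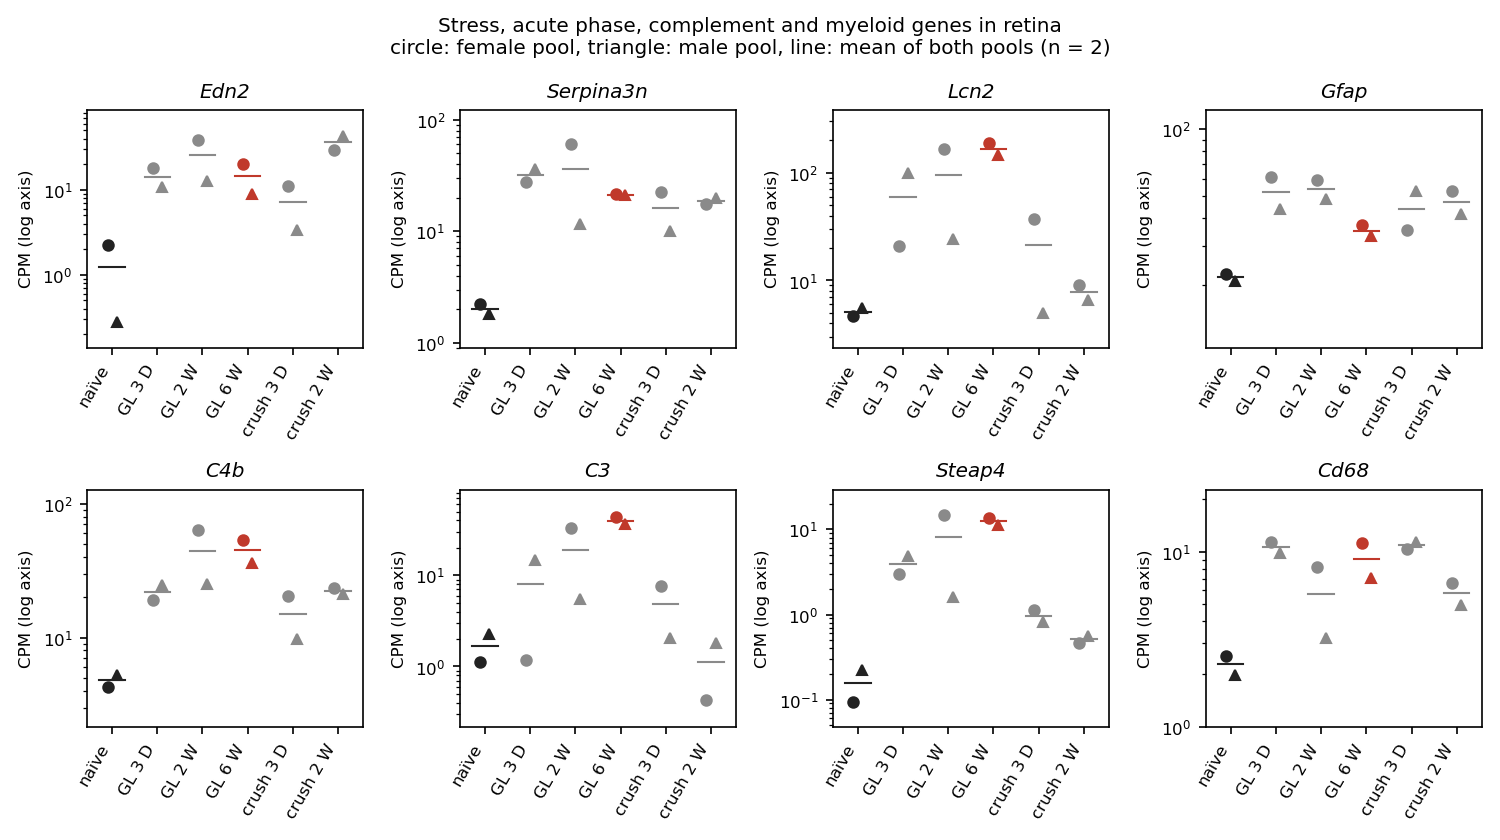
CPM (log axis) of 8 stress, acute phase, complement and myeloid genes in the 12 retina pools, with circles for female pools, triangles for male pools and a line at each group mean; 6 W glaucoma (GL) is in red. Both 6 W pools lie above both naïve pools for all 8, and Lcn2, C3 and Steap4 are far lower at 2 W after crush than at 6 W of glaucoma.

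Of 26 tested complement components and receptors, 0 were called by edgeR and 1, C4b, by DESeq2, while 18 were non-overlapping above naïve and 0 below. In this list 11 had an unadjusted p below 0.05 by edgeR and the median log2 fold change was 1.02. With Itgax, at 0 in both naïve pools, set to its lower bound, the median was 0.93. C4b, cleaved in the classical pathway, read 4.27 and 5.30 CPM in naïve and 53.6 and 36.2 CPM at 6 W (3.19, SE 0.43, edgeR adjusted p = 0.211, DESeq2 adjusted p = 1.4e-13). C3, the hub of all complement pathways, read 1.11 and 2.26 against 43.6 and 36.2 CPM (4.62, SE 1.23, DESeq2 adjusted p = 0.13). The C1q chains, which microglia make, had smaller differences: C1qb read 14.1 and 13.4 against 34.4 and 31.2 CPM (1.25, SE 0.42). Serping1, the inhibitor of C1, read 7.20 and 7.12 against 37.1 and 29.9 CPM (2.22, SE 0.64).

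Genes of phagocytic microglia had a larger median difference than those of resting microglia. The median log2 fold change of 20 phagocytic and disease-associated genes was 1.38, with 14 non-overlapping above naïve and 2 below, and 3 called higher by DESeq2. With Itgax, at 0 in both naïve pools, set to its lower bound, that median was 1.18. Cd68, a lysosomal marker of phagocytes, read 2.55 and 1.99 CPM in naïve and 11.1 and 7.05 CPM at 6 W (1.97, SE 0.36, DESeq2 adjusted p = 0.000626). Galectin 3 (Lgals3) read 2.60 and 4.00 against 14.5 and 9.36 CPM. The lysosomal protease Ctss, outside the lists and picked after its values were seen, read 14.7 and 14.8 against 45.5 and 36.1 CPM (DESeq2 adjusted p = 0.0322). Lyz2, lysozyme of myeloid cells, read 3.49 and 4.96 against 121 and 80.6 CPM but with a wide error (4.52, SE 1.08, DESeq2 adjusted p = 0.0904). The 14 homeostatic genes had a median of 0.44, with 10 above and 0 below. Cx3cr1, the fractalkine receptor, read 5.43 and 4.36 against 11.3 and 9.58 CPM, Tmem119 2.97 and 4.44 against 5.76 and 4.55 CPM, and P2ry12 1.42 and 1.85 against 0.758 and 3.43 CPM. The difference between those lists was not tested.

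No antigen presentation or interferon gene was called by edgeR. Of 21 MHC class I and II genes, 16 were non-overlapping above naïve and 1 below, with a median of 0.88. The class II chain H2-Aa read 0.968 and 0.221 CPM in naïve and 7.52 and 3.13 CPM at 6 W (3.32, SE 0.97, DESeq2 adjusted p = 0.00626), and H2-Eb1 0.590 and 0.359 against 4.66 and 1.45 CPM. The invariant chain Cd74 read 2.48 and 0.855 against 11.1 and 7.34 CPM, and the class I light chain B2m 28.5 and 29.8 against 63.9 and 52.98 CPM. Of 34 interferon-stimulated genes, 15 were above and 0 below naïve, with a median of 0.42. The antiviral Ifitm3 was the DESeq2 call among them (17.5 and 14.98 to 51.6 and 37.5 CPM, log2 fold change 1.44, SE 0.44).

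**Figure D3:**
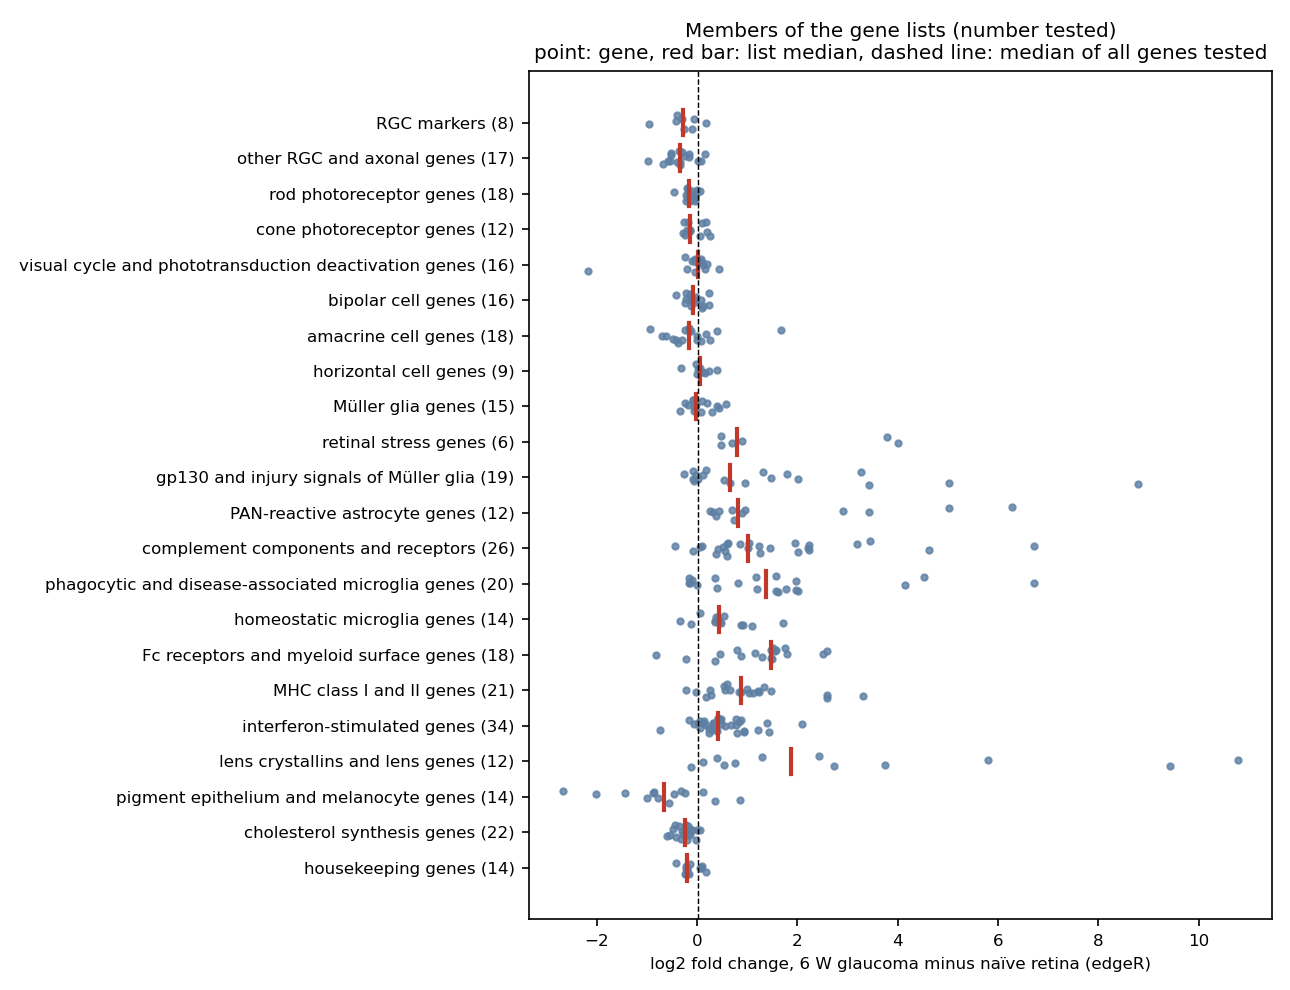
Log2 fold change at 6 W against naïve retina (edgeR) for each tested member of 22 gene lists, with a red bar at the list median and a dashed line at the median of all genes tested. Stress, reactive astrocyte, complement, microglial, MHC and lens lists spread to the right, while the Müller glia list centers near the dashed line (median -0.02). RGC lists lie just left of that line and Grk1 stands alone among the visual genes. Values of members at 0 in both naïve pools, such as Crybb2, Ccl2 and Itgax, depend on the prior count of the fit.

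Most RGC genes lay below naïve at 6 W by small amounts, and none was called. Housekeeping genes also lay below naïve (median -0.20, with 8 of 14 non-overlapping below and 0 above). Of 8 RGC markers that the study followed, 3 were non-overlapping below naïve and 0 above, with a median log2 fold change of -0.29. Rbpms, the RNA-binding protein that marks RGCs, was lowest, at 44.9 and 38.0 CPM in naïve and 28.4 and 13.9 CPM at 6 W (-0.97, SE 0.40, unadjusted p = 0.0433). Its relative Rbpms2 read 46.0 and 37.3 against 27.0 and 38.3 CPM, so the pools overlapped. The transcription factor Pou4f1 read 13.5 and 10.6 against 11.2 and 8.87 CPM. Sncg, gamma-synuclein of RGC axons, read 255 and 204 against 172 and 202 CPM (-0.31, SE 0.39). Tubb3, neuronal tubulin, was below both naïve pools, at 176 and 158 against 118 and 135 CPM. The other markers had fitted log2 fold changes of -0.27 (Pou4f1), -0.09 (Thy1), -0.05 (Pou4f2) and 0.18 (Pou4f3).

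Another list of 17 RGC and axonal genes gave the same picture, with 13 non-overlapping below naïve and 0 above. Its median was -0.35, against -0.20 for the housekeeping genes. Slc17a6, the glutamate transporter VGLUT2 that RGCs use, read 72.5 and 79.7 CPM in naïve and 51.2 and 54.7 CPM at 6 W (-0.52, SE 0.14, unadjusted p = 0.0066). Neurofilament heavy chain (Nefh) read 74.5 and 78.2 against 41.4 and 54.5 CPM (-0.69, SE 0.30) and light chain (Nefl) 808 and 766 against 575 and 628 CPM (-0.39, SE 0.20). Chrna6, a nicotinic receptor subunit, read 131 and 126 against 82.3 and 90.4 CPM. At 3 D the medians were -0.63 for the markers and -0.73 for this list, further below naïve than at 6 W, with the 3 D female pool low in most members. That pool was also the shallowest library, at 19.9 M counts.

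**Figure D4:**
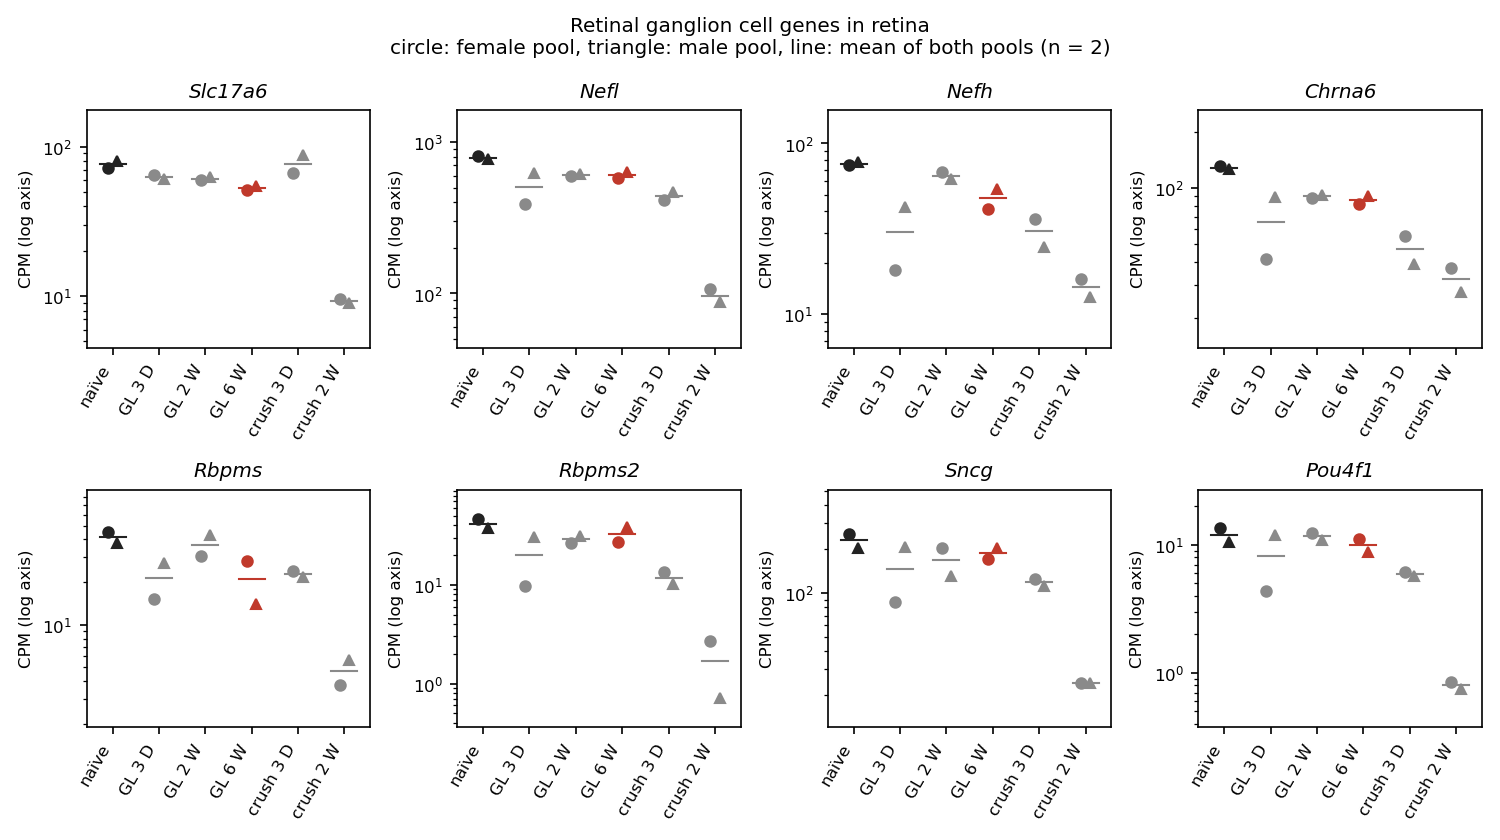
CPM (log axis) of 8 RGC genes in the 12 retina pools, with circles for female pools, triangles for male pools and a line at each group mean; 6 W glaucoma (GL) is in red. The 6 W pools lie at or below naïve levels, furthest for Rbpms in the male pool, and the 2 W crush pools lie far below both for all 8.

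RGC genes separated the 6 W glaucoma retina from the retina 2 W after ON crush, an injury that cuts off nearly all RGC axons at once. The times differ (6 W against 2 W), so the comparison is between these groups and not between injuries at a matched time. Of 24693 genes tested, edgeR called 28 higher in 6 W glaucoma (0.113%) and 3 lower (0.0121%), and DESeq2 called 147 (0.621%) and 30 (0.127%). Among the RGC markers 3 of 8 were called higher by edgeR and 6 of 8 by DESeq2, and in the other list 5 and 9 of 17. Median log2 differences were 3.30 and 1.38 for those lists. Slc17a6 read 9.57 and 9.03 CPM after crush (log2 difference 2.51, SE 0.16, edgeR adjusted p = 0.000344), Nefl 106 and 87.4 CPM (2.63, SE 0.21, adjusted p = 0.000684) and Nefm 23.3 and 19.97 CPM (2.54, adjusted p = 0.000344). Pou4f1 read 0.841 and 0.748 CPM (3.65, adjusted p = 0.0194).

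The largest fitted differences from crush were in Irx4, Zfp280b and Trarg1. Irx4, an RGC transcription factor, read 0.0935 and 0.139 CPM after crush and 4.69 and 3.43 CPM at 6 W (log2 difference 5.13). It had 5 estimated counts in each crush pool, below the floor of 12, so the size and rank of its difference are uncertain. Zfp280b read 1.91 and 1.44 against 38.1 and 37.7 CPM (log2 difference 4.49). Trarg1 read 0.972 and 1.72 against 26.6 and 25.2 CPM (log2 difference 4.32). The 3 genes lower in 6 W glaucoma were Ak4 (-3.67), Grk1 (-2.39) and Dpm1, a subunit of dolichol-phosphate mannose synthase (-1.66). Dpm1 was high at 2 W after crush (59.7 and 68.1 CPM) and at 3 D of glaucoma (59.8 and 85.4 CPM). It read 21.2 and 19.3 CPM at 6 W and 15.63 and 15.003 CPM in naïve retina. At 3 D after crush it had 618 and 548 estimated counts, against 662 and 544 in naïve. Leaving out 1 pool at a time gave 17 to 27 genes higher and 2 to 23 lower, of which 11 to 21 were shared with the 31.

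Other retinal neurons and Müller glia stayed close to naïve. Median log2 fold changes were -0.09 for 16 bipolar cell genes, -0.17 for 18 amacrine cell genes, 0.06 for 9 horizontal cell genes and -0.02 for 15 Müller glia genes, against 0.00696 for all genes and -0.20 for 14 housekeeping genes. A pair of amacrine genes went opposite ways. Somatostatin (Sst), a peptide of displaced amacrine cells, read 3.73 and 3.09 CPM in naïve and 14.5 and 7.64 CPM at 6 W (1.67, SE 0.36, edgeR adjusted p = 0.637, DESeq2 0.0128). Tyrosine hydroxylase (Th), of dopaminergic amacrine cells, read 15.9 and 15.4 against 6.93 and 9.25 CPM (-0.94, SE 0.30, unadjusted p = 0.0155). In Müller glia, Sox9 read 21.8 and 22.6 against 28.6 and 37.5 CPM while glutamine synthetase (Glul) read 1305 and 1230 against 1109 and 1321 CPM.

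Of 22 cholesterol synthesis genes, 14 were non-overlapping below naïve and 0 above, with a median of -0.24 and 0 calls, close to the housekeeping genes (8 of 14 below, median -0.20). The immediate early gene Jund, a subunit of AP-1, was a DESeq2 call among the lists, at 51.0 and 57.5 CPM in naïve and 12.8 and 12.9 CPM at 6 W (-2.06, SE 0.44, edgeR adjusted p = 0.637, DESeq2 0.000114). Jund was also low in the 3 D female pool (6.92 CPM) and in the female crush pool at 2 W (7.63 CPM). Of the 114 DESeq2 calls, 18 of 69 higher and 2 of 45 lower belonged to a list. Genes outside the lists, picked after their values were seen, included Slc12a5, the chloride transporter KCC2 of neurons (305 and 331 to 104 and 107 CPM, log2 fold change -1.59, SE 0.30) and Glrb, the glycine receptor beta subunit (55.2 and 56.0 to 16.4 and 34.3 CPM, log2 fold change -1.19, SE 0.27). Slc12a5 was already at 88.3 and 176 CPM at 2 W of glaucoma. Of the DESeq2 calls, 64 of 69 and 42 of 45 were non-overlapping between groups. The calls were made on the same pools, so that count is not independent evidence. Of the 45 lower ones, 17 fell in the fifth of genes with the highest GC content.

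Markers of tissue next to the retina differed between pools. Lens genes summed to 164 CPM in the female 6 W pool and to 42.5 to 95.9 CPM in the other 11 retina pools, and the crystallins Cryaa (42.9 CPM) and Crybb2 (19.8 CPM), both at 0 in the male 6 W pool, led the excess. The part of these tissues in the glial differences was not tested. Pigment epithelium and melanocyte genes summed to 212 and 313 CPM in naïve and 236 and 115 CPM at 6 W (median -0.67), with Rpe65 at 17.5 and 28.4 against 12.9 and 9.51 CPM. Neutrophil and monocyte genes stayed at 1.39 to 8.04 CPM in sum over all 12 pools, and 7 optic nerve astrocyte genes had a median of 0.08.

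Between times of glaucoma, few genes passed the test. Against 3 D, edgeR called 1 gene higher (0.00429%) and 2 lower (0.00858%, in all 0.0129%) of 23301, and against 2 W it called 0 higher and 2 lower (0.00858%). The genes lower were Grk1 (-2.11 and -2.52) and Ak4 (-3.77 and -3.86) in both, which share the 6 W pools with the comparison to naïve. The gene higher than at 3 D was Purb, which read 0 in all 6 female pools and 213 CPM in the male 6 W pool. That call thus rested on 1 pool of each group. In male pools Purb had 21032 estimated counts in naïve, 0 at 3 D, 8968 at 2 W and 5704 at 6 W. Its log2 fold change at 6 W against naïve was -1.44, short of a call, so Purb was not raised above naïve. DESeq2 called 46 higher (0.281%) and 46 lower (in all 0.563%) against 3 D, and 23 (0.106%) and 43 (0.199%, in all 0.305%) against 2 W. Purb was not called without the sex term, without the male 6 W pool or without the male 3 D pool, and Grk1 was not called against 3 D without the sex term or without the female 6 W pool.

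The retinal difference from naïve at 6 W was next set against that of the optic nerve of the same mice. The difference between tissues in the change from naïve was tested as an interaction over 16 libraries, in a fit that left out the pairing of tissues from the same mice. By edgeR, 0 of 26731 genes differed between retina and UON (0%, 1105 at unadjusted p below 0.05) and 0 of 26550 between retina and MON (2245 at unadjusted p below 0.05). DESeq2 called 45 genes with a higher (0.203%) and 11 with a lower (0.0496%) change in retina than in UON, in all 0.252%. Against MON it called 182 (0.925%) and 63 (0.32%), in all 1.25%. With a block for the mice of each pool, edgeR again called 0 genes in both, and DESeq2 called 23 and 8 against UON and 42 and 15 against MON. For C4b, the log2 fold change was 3.19 in retina, 0.42 (SE 0.38) in UON and 0.31 (SE 0.39) in MON, a difference of 2.79 (DESeq2 adjusted p = 0.00349) and 2.89 (0.000378). Steap4 had -1.03 (SE 0.83) in UON and -0.12 (SE 1.04) in MON, against 6.27 in retina, differences of 7.31 and 6.48 (DESeq2 adjusted p = 3.2e-05 and 0.00209; edgeR 1 and 0.488). Ak4 had 1.34 (SE 0.74) and 1.35 (SE 0.55) in UON and MON, opposite in sign to its fall in retina (differences -4.84 and -4.93; DESeq2 adjusted p = 0.00974 and 1.3e-06). Lcn2 differed from MON (7.19, DESeq2 adjusted p = 0.0101) and, short of a call, from UON (5.73, 0.0836), and with the block it differed from UON (5.38, DESeq2 adjusted p = 0.00214) and fell short for MON (6.21, 0.0804). The DESeq2 calls of C4b, Steap4 and Ak4 were also made with the block. For Gfap the differences were 0.51 (SE 0.34) and 0.30 (SE 0.36).

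**Figure D5:**
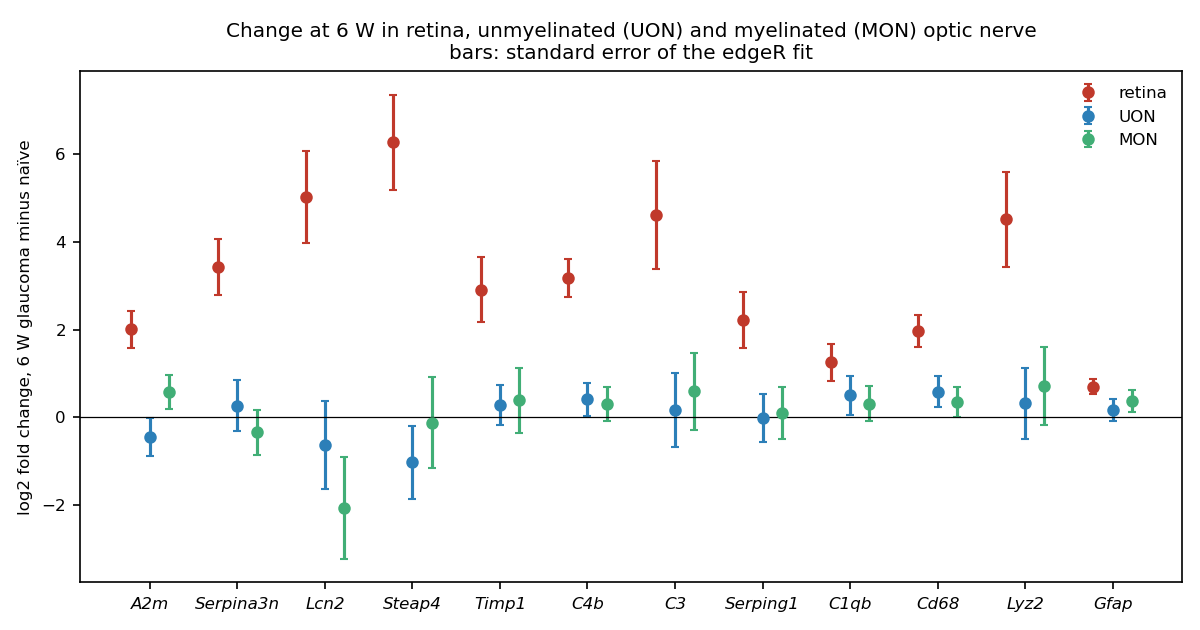
Log2 fold change at 6 W against naïve (edgeR) for 12 stress, complement and myeloid genes in retina (red), UON (blue) and MON (green), with bars for the standard error of the fit. Retinal values lie above both nerve values for all 12, and the nerve values run from -2.07 (Lcn2 in MON) to 0.71 (Lyz2 in MON). These genes were picked with earlier results of these data known, so their shared direction is not independent evidence. By edgeR, 0 genes were called for a difference between tissues.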

How the data were processed

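Bulk RNA-seq was analysed in 12 retina libraries and in 8 UON and MON libraries at 0 D and 6 W. Alignment by the authors used HISAT2 2.2.1 and GRCm38, and assembly used StringTie 1.3.0 with Gencode M25, and the submitters' processing notes name both tools. The authors deposited estimated counts per gene and transcript, made from coverage and rounded, so that a read pair adds about 4 counts. The authors also deposited FPKM per gene, and a few values just below 0 were set to 0. Strand of counting is not given in the sources used here. Groups came from the sample titles, and no count column was left unmapped.

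Genes were kept by filterByExpr (minimum count 10, minimum total 15). The edgeR 4.0.16 quasi-likelihood test (R 4.3.3) was fitted to 8 retina libraries (naïve, 3 D, 2 W, 6 W) with group and sex, to 12 retina libraries for crush and to 16 libraries for tissue interactions, on the counts as deposited with Benjamini-Hochberg adjustment. DESeq2 1.42.0, the study's own test, and limma 3.58.1 on log2(FPKM + 1) were alternatives, with others listed in the closing section. The edgeR and DESeq2 steps were tested on simulated data. At log2 fold changes of 1, 2 and 3 in size, edgeR recovered 1 of 50, 39 of 100 and 44 of 50 changed genes. DESeq2 recovered 5, 67 and 47 of the same genes. False calls numbered 1 with edgeR and 19 with DESeq2. A gene not called by edgeR can thus still differ, and a DESeq2 call can be false. Named genes were the 15 largest calls each way, the RGC and stress lists, in each of 46 lists the called members, the 3 lowest p and the 2 most abundant, and for other comparisons the 3 largest calls each way. Genes outside this rule are marked as picked after their values were seen, or are list members added for context in the same way (B2m, C1qb, Chrna6, Cryaa, Nefm, P2ry12, Sag and Tmem119). A gene that the rule names is not reported here. The members and lists were chosen with earlier results of these data known. Of 739 list genes, 735 matched a gene in the table. Promoter windows came from RefSeq. Retina, UON and MON came from the same mice by the study's methods. After removal of the sex difference, tissues of the same mice correlated at -0.0892 to 0.0351 (UON) and -0.162 to 0.0451 (MON) in their deviations over genes, and a fit with a block for these mice was added. Pools of a group differed by more than counting noise. Because each group held 1 pool of each sex and the fit had a sex term, the sex difference common to all groups was removed. A p-value of the main fit rests on how that difference varied over the groups (3 residual degrees of freedom). That spread was combined with one shared across genes.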

Additional observations from a re-analysis of the deposited data

Results flagged for a closer look

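Genes are listed here because their level at 6 W of glaucoma differed from another injury group of retina by edgeR's quasi-likelihood test with Benjamini-Hochberg adjustment. Values are log2 differences, 6 W glaucoma minus the other group. Against 2 W after crush, genes of RGCs and their axons were higher at 6 W: Rbpms2 (4.22), Pou4f1 (3.65), Isl2 (3.52), Sncg (2.95), Nefl (2.63), Nefm (2.54), Slc17a6 (2.51) and Kcnd2 (2.45). So were the transcription factors Irx4 (5.13) and Zfp280b (4.49), with Trarg1 (4.32) and Ahnak2 (3.49). Irx4 had 5 estimated counts in each crush pool, so the size of its difference is uncertain.

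Genes of signalling and of the cytoskeleton were also higher at 6 W than after crush: Srgap1 (2.79), Sbk1 (2.75), Pdzd4 (2.69), Rgs4 (2.32), Gpr26 (2.1), Map1a (1.62) and Sult4a1 (1.19). Secreted, synaptic and calcium-binding proteins followed: Nell2 (2.21), Lgi1 (2.03), Cplx1 (1.76), Calb2 (1.51), Sv2c (1.39), Ncald (1.19), Olfm1 (1.12), Gabbr2 (1.11) and the chromatin protein Banf1 (1.03). Adjusted p for these 28 genes ran from 0.000344 to 0.0499. Lower at 6 W than after crush were Ak4 (-3.67), Grk1 (-2.39) and Dpm1 (-1.66).

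Ak4 was also lower at 6 W than at 2 W (-3.86) and 3 D (-3.77) of glaucoma, as was Grk1 (-2.52 and -2.11). Purb was higher than at 3 D (15.3), where it read 0 in both pools. Against naïve retina its log2 fold change at 6 W was -1.44, and the male naïve pool had 21032 estimated counts. The value of 15.3 depends on the prior count. At 6 W Purb read 0 in the female and 213 CPM in the male pool. On average that was at least 249-fold higher than a floor of 12 estimated counts, or about 3 read pairs, per library at 3 D.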

How the results depend on the processing

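Counts of called genes at 6 W against naïve retina, 0 higher and 2 lower, became 69 and 45 with DESeq2, 71 and 44 with DESeq2 on the genes of the edgeR filter, 14 and 7 with no filter on low counts, 1 and 1 with no sex term, 1 and 2 with counts divided by 4, 1 and 0 (Lcn2) for the 4 libraries alone and 3 and 6 without the female 3 D pool. They were 0 and 0 with GC offsets and with limma on log2(FPKM + 1). The GC offsets, the fit without that pool, limma and the second DESeq2 run were chosen after seeing the data. Leaving out 1 of the 4 pools gave 0 to 9 higher and 0 to 16 lower, and both calls were lost without the female naïve pool. Over the 15 alternatives that refitted the genes, limma and DESeq2 included, Grk1 was called in 10 and Ak4 in 11, with log2 fold changes below 0 in all 15.

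Against 3 D, 1 higher and 2 lower became 46 and 46 with DESeq2, 4 and 6 with no filter, 0 and 1 with no sex term, 2 and 2 with counts divided by 4, and 2 to 10 and 3 to 14 with 1 pool left out. Against 2 W, 0 and 2 became 23 and 43 with DESeq2, 3 and 5 with no filter, and 4 to 7 and 3 to 13 with 1 pool left out. Against crush at 2 W, 28 and 3 became 147 and 30 with DESeq2, 74 and 15 with no filter, and 17 to 27 and 2 to 23 with 1 pool left out. For the difference from UON, 0 and 0 became 45 and 11 with DESeq2, 23 and 8 with DESeq2 and a replicate block for the mice of each pool, and 0 to 2 and 0 to 2 with 1 pool left out. For the difference from MON, 0 and 0 became 182 and 63 with DESeq2, 42 and 15 with DESeq2 and the replicate block, 1 and 0 with DESeq2's size factors in edgeR, 5 and 3 with no filter, 3 and 0 with no sex term or with counts divided by 4, and 0 to 16 and 0 to 38 with 1 pool left out, the highest without the female naïve MON pool. With edgeR, the block, chosen after seeing the data, gave 0 and 0 for both tissues. Where a pool was left out, its group's lone pool was assumed to vary like the other groups. Among called genes the sign turned once, for Purb against 3 D without the male 3 D pool (-0.73). Among named genes not called it turned more often. At 6 W against naïve, 78 values turned with 1 pool left out and 24 under other settings. For the difference from MON, 2 values turned with 1 pool left out. Rbpms2 ran from -0.90 to 0.17 and Pou4f1 from -0.61 to 0.09 over the alternatives. The cause of these shifts was not tested.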
